A study of Mus musculus with 6 samples.

Results

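Esp4 and Esp18 are 2 of the 15 exocrine gland secreted peptide genes, and 2 of the 32285 genes, listed in the count matrices of a single-cell RNA-seq study of the mouse submandibular salivary gland. They were chosen by symbol, and both were selected on their levels in these same cells across cell classes and treatments, so their own values are given as a description and without a test. Both lie on chromosome 17 in GRCm38, Esp18 (ENSMUSG00000094024) at chr17:39406359-39410992 and Esp4 (ENSMUSG00000095540) at chr17:40598594-40602618.

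Exocrine gland secreted peptides are small proteins that mice release from the lacrimal, Harderian and salivary glands. Several of them are read by vomeronasal receptors of the V2R class and act as chemical signals between animals. In the submandibular gland, saliva made by acinar cells passes first through the narrow intercalated ducts, then through the granular convoluted ducts, which add kallikreins and growth factors, and then through the striated ducts, which take up salt. Basal cells line the larger ducts beneath the luminal layer and do not face the lumen.

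The study held 3 libraries, all from wild-type female C57BL/6J mice whose labelled age is 8 to 10 weeks. The first held whole gland epithelium sorted as Epcam+ at 90 days after stereotactic irradiation of the left submandibular gland with 30 Gy, the second held untreated basal cells sorted as Epcam+ and Cd49f-high, and the third held untreated whole epithelium sorted as Epcam+. Every sort gated out dead cells, and also leukocytes and endothelium by antibodies against Cd45, Cd3, Cd16/32 and Cd31. Each library pooled 3 mice marked by hashtag antibodies, so the mouse is the replicate, while library, sort, age and treatment cannot be told apart between groups. The labelled age cannot be the age of the irradiated mice at collection.

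The irradiated library held 58485558 gene UMIs (unique molecular identifiers, each standing for 1 captured transcript) in 3319 barcodes, the basal sort 59207148 in 5044 barcodes and the untreated whole epithelium 137835128 in 8277 barcodes. The median mitochondrial share per barcode was 5.25% in the irradiated library, 5.19% in the basal sort and 19.3% in the untreated whole epithelium. After the filters, a hashtag call to 1 mouse and doublet removal, 2005 irradiated, 3068 basal-sorted and 2090 untreated whole epithelium cells were kept. Those of 1 mouse numbered 331 to 1227 in the irradiated library, 800 to 1239 in the basal sort and 652 to 742 in the untreated whole epithelium. The irradiated library and the untreated whole epithelium shared 8 cell barcodes, the irradiated library and the basal sort 1, and the basal sort and the untreated whole epithelium 15. The files carry no cell annotation, so classes were rebuilt by clustering without the Esp genes and named from fixed markers. Intercalated duct-like cells were a single cluster in which all 4 markers (Kit, Gfra3, Elf5 and Nkd2) were raised.

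The sequence upstream of the gene is shown for Esp18 beside that of Esp31, because Esp31 had the most similar upstream sequence of the 12 Esp genes compared with it, Esp4 not among them, while its transcripts lay in another cell class, as given further on. Each is the 250 bases before the annotated start on the plus strand, from RefSeq on GRCm38.p6, Esp18 at chr17:39406109-39406358 and Esp31 at chr17:38639197-38639446, with the longest run that both share in capitals.
Esp18: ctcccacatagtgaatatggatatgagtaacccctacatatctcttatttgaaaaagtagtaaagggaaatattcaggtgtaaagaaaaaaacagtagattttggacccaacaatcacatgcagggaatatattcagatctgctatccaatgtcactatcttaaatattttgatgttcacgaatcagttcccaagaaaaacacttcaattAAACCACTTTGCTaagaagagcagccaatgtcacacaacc
Esp31: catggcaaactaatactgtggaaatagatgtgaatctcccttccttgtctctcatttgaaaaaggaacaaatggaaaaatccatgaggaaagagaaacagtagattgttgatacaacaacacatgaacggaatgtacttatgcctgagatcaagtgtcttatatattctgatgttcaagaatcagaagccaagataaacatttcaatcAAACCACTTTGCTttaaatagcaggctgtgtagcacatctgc
The shared run, AAACCACTTTGCT, is 13 bases long and occurs in 2 of 32851 promoter windows. Aligned end to end, Esp31 was identical to Esp18 at 182 of 250 bases (72.8%). The other Esp genes in the table ranged from 53.2% (Esp6) to 63.2% (Esp16), and 2701 promoters of other genes had a median of 53.2% and a highest value of 61.6%. Of 3 short motifs searched on both strands, CCAAT, the core of the CCAAT box, was in the Esp18 window, in 10 of 13 Esp entries and in 33.8% of all promoters. TATAAA (12.4% of all promoters, 3 of 13 Esp entries) and TGTTCT, the half-site of steroid hormone receptor elements (16.1%, 4 of 13), were not found in the letters of the Esp18 window.

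Esp4 transcripts were concentrated in intercalated duct-like cells. Levels are given as the UMIs of the gene per 1000000 gene UMIs of the same cells (CPM), summed per mouse and class. In basal-sorted mice 1, 2 and 3 the intercalated duct-like cells held 2454, 2223 and 2718 CPM, with 111 such cells in all. In untreated whole epithelium they held 1056, 1519 and 1776 CPM in the 3 mice (1451 ± 365, SD, n = 3), with 531 such cells. All 3 basal-sorted mice were above all 3 untreated whole epithelium mice. The 2 groups differ in library, in sort and in the number of cells per mouse, which was 19 to 72 in the basal sort. The share of all genes that separated the 2 groups in this class was not counted. At least 1 Esp4 UMI was found in 102 of 111 cells of the basal sort (91.9%) and in 451 of 531 cells of the untreated whole epithelium (84.9%). This class made up 25.4% of kept untreated whole epithelium cells and held 91.9% of their Esp4 UMIs.

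The other untreated classes had far lower Esp4 levels. Among classes with at least 40 cells, acinar-like cells followed the intercalated duct-like cells with 24.0, 32.3 and 37.1 CPM in the 3 mice (31.1 ± 6.61). Below them came ionocyte-like cells, the proton-secreting duct cells, at 7.13 ± 2.13 CPM, striated duct-like cells at 4.82 ± 2.85 CPM and granular duct-like cells at 2.66 ± 3.21 CPM (SD, n = 3 mice each). The last 3 do not differ beyond their spread. Within the acinar-like cells the signal was uneven. A cluster of 82 cells high in Smgc, the submandibular gland mucin, had 241, 213 and 307 CPM, against 2.99, 4.01 and 3.24 CPM in the other acinar-like cluster.

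**Figure D1:**
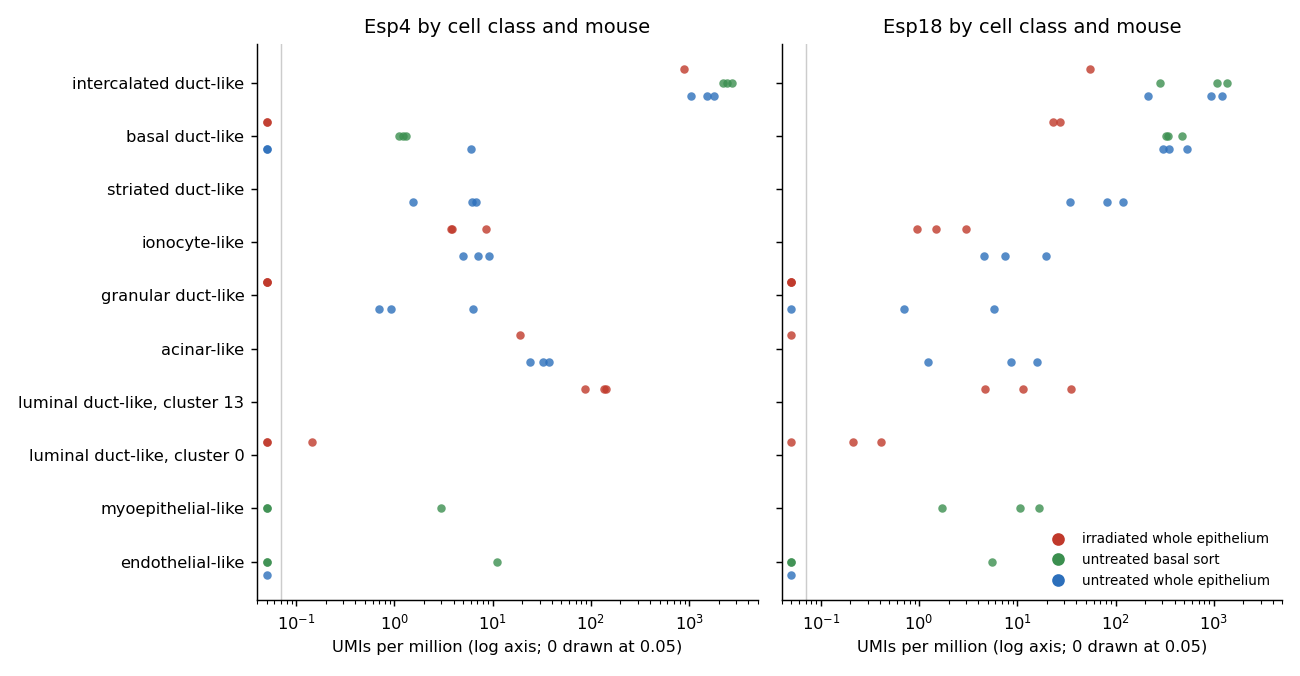
Esp4 and Esp18 levels in CPM on a log axis by cell class and library, each point 1 mouse with at least 5 cells of the class and a level of 0 drawn left of the grey line. Esp4 is high in intercalated duct-like cells of both untreated libraries, while Esp18 is high there and in basal duct-like cells.

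Esp18 had a second site, the basal duct cells. In the basal sort, basal duct-like cells of the 3 mice held 345.5, 480.5 and 324.6 CPM (384 ± 84.6, SD, n = 3), and 1721 of 2530 cells (68.0%) had at least 1 UMI. The 50 basal duct-like cells of the untreated whole epithelium held 352, 539 and 304 CPM (398 ± 124), and the mice of the 2 libraries overlapped although only 1 of them was gated on Cd49f. Esp4 in the same basal-sorted cells was 1.23, 1.31 and 1.12 CPM. It was detected in 1.62% of them and in 1.74% of endothelial-like cells (2 of 115, Wilson interval 0.478% to 6.12%, median 3276 UMIs a cell against 14038.5). Esp18 was found in 85.4% of the basal-sorted basal duct-like cells with Esp4 and in 67.7% of those without it. Whether the Esp4 UMIs of these cells are background was not tested. Esp18 in endothelial-like cells was found in 1 of 115 cells (0.870%) and in myoepithelial-like cells, the contractile basal cells, in 6 of 216 (2.78%). Basal duct-like cells held 91.3% of the Esp18 UMIs of the basal sort.

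Among the basal duct-like clusters the Esp18 level differed. The cluster led by Krt15 and Aldh1a7 (cluster 1) held 471, 573 and 453 CPM in the 3 basal-sorted mice, and the cluster led by Rflna and Ccn4 (cluster 8) held 465, 626 and 394 CPM. The clusters led by Ncs1 and Wnt11 (cluster 2; 294, 378 and 278 CPM) and by Clca3a2 and Ccl19 (cluster 5; 225, 411 and 270 CPM) were lower in each mouse. In the remaining basal duct-like cluster (cluster 15), led by Orm1, Tnc, Krt6a and Ifi202b, no Esp18 UMI was counted in 100 cells with 1225307 gene UMIs, which allows a share of up to 3.00% of cells with a UMI and a level of up to 3.01 CPM (exact Poisson 95% bound). Such intervals cover counting error only. Cycling-like cells, the dividing cells of the basal sort, held 139, 587 and 359 CPM, with Esp18 in 57 of 73 cells. Mouse 2 was the highest of the 3 mice in the cycling-like cells and in each of the 4 basal duct-like clusters with a UMI.

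**Figure D2:**
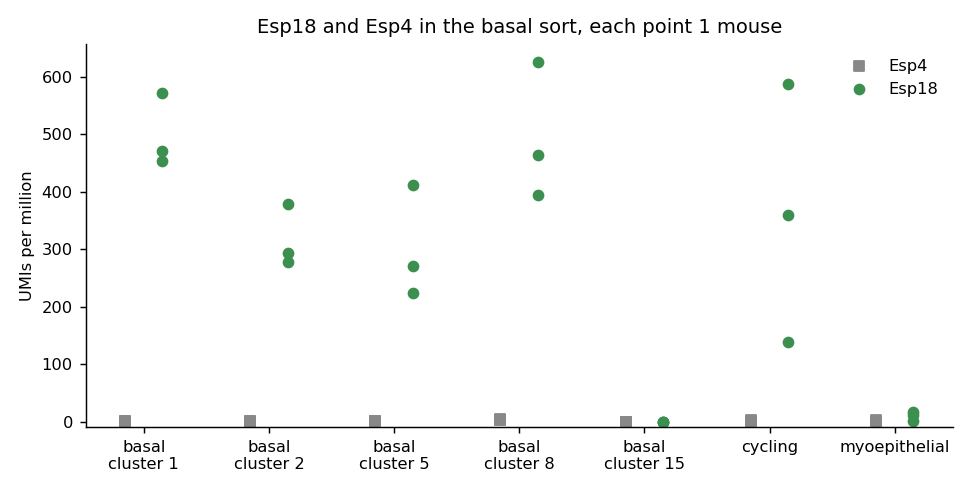
Esp18 (circles) and Esp4 (squares) in CPM in the basal duct-like, cycling-like and myoepithelial-like clusters of the basal sort, each point 1 mouse. For Esp18, cluster 15 is at 0 in all 3 mice, the myoepithelial-like cluster is low and the other clusters lie between 139 and 626 CPM, while Esp4 is near 0 in all of them.

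In intercalated duct-like cells Esp18 was carried by a minority of cells. Its level was 1066, 1348 and 284 CPM in the basal-sorted mice and 212, 1217 and 947 CPM in the untreated whole epithelium mice, so the mice of 1 library differed by more than the libraries did. A UMI was found in 43 of 111 basal-sorted cells and in 205 of 531 untreated whole epithelium cells (38.6%). In the untreated whole epithelium the positive cells held a median of 7 and at most 134 Esp18 UMIs, and the 10% of cells with the most held 71.4% of them. For Esp4 the positive cells of the same class held a median of 10 and at most 84 UMIs, and the 10% of cells with the most held 35.8%. In basal duct-like cells of the basal sort, positive cells held a median of 5 Esp18 UMIs and at most 65, and 486 of 2530 cells held 10 or more.

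Because cells differ in depth, each cell was also thinned to 2000 UMIs, leaving out shallower cells. After thinning, 76.2% of untreated intercalated duct-like cells held an Esp4 UMI (68.2% to 80.3% over the mice) and 30.1% held an Esp18 UMI (17.1% to 38.3%). For basal duct-like cells of the basal sort the thinned Esp18 share was 37.3% (31.8% to 42.3%). The unevenness can be written as the variance of UMIs over cells divided by their mean after thinning. For Esp18 in untreated intercalated duct-like cells it was 6.38, and 12 of 259 genes of like mean were higher, against a median of 1.19 over those genes. For Esp4 it was 3.44, with 26 of 155 genes of like mean higher. These are descriptions over cells that share a library and 3 mice.

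**Figure D3:**
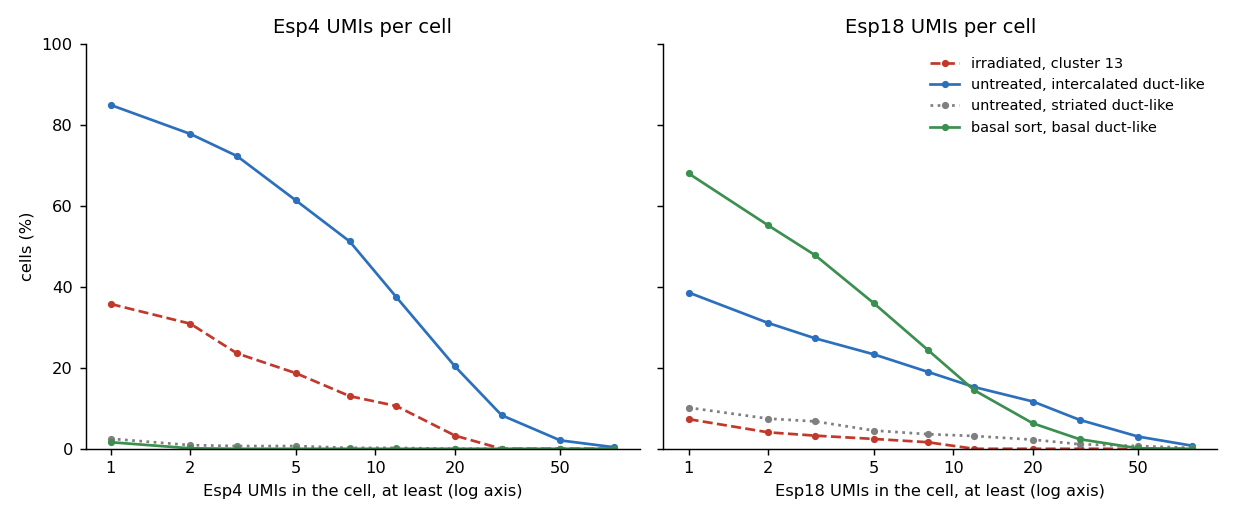
Percent of cells (vertical axis) holding at least a given number of Esp4 or Esp18 UMIs (horizontal log axis) in 4 sets of cells, each line 1 set; cluster 13 is a set of 123 irradiated cells described further on. Of untreated intercalated duct-like cells 84.9% carry Esp4 and 38.6% Esp18, and the 2 lines for Esp18 in intercalated and basal duct-like cells cross near 10 UMIs.

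The 2 genes did not mark separate intercalated duct-like cells. Of 531 untreated whole epithelium cells, 178 held both, 273 Esp4 alone, 27 Esp18 alone and 53 neither. Esp18 was found in 39.5% of the cells with Esp4 and in 33.8% of the cells without it. By mouse these shares were 26.8%, 46.5% and 45.1% of cells with Esp4 and 19.4%, 44.0% and 41.7% of cells without it. Among the 91 cells with at least 10 Esp18 UMIs, 79 also held Esp4. In the basal sort, by contrast, 1686 of 2530 basal duct-like cells held Esp18 alone and 35 held both.

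Within the untreated intercalated duct-like class, cells rich in Esp18 were set against cells with no Esp18 UMI. Cells rich in Esp4 were likewise set against cells with no Esp4 UMI. The Esp18-rich cells were not compared directly with the Esp4-rich cells, and the same cell can be rich in both. The genes in these comparisons and the split at 5 UMIs were chosen after their values were seen, and the values are given with no test. The 124 cells with at least 5 Esp18 UMIs (median 8378.5 UMIs a cell) had 565, 1298 and 772 CPM of Crisp3, a cysteine-rich secretory protein of the granular ducts, in the 3 mice, against 165, 51.0 and 200 CPM in the 326 cells with none (median 6075). The 19 granular duct products together reached 2724, 8206 and 3299 CPM in the Esp18-rich cells, against 2510, 1644 and 1961 CPM in the cells with none. Kcnn4, a calcium-activated potassium channel, was at 0, 3.70 and 8.35 CPM in the Esp18-rich cells, against 26.8, 73.6 and 60.1 CPM in the cells with none. Slc13a2, a citrate and dicarboxylate transporter, was also lower in the Esp18-rich cells in every mouse, at 36.4, 12.9 and 63.5 CPM against 124, 176 and 171 CPM. Esp4 itself was close between them, at 1535 CPM in the Esp18-rich cells and 1432 CPM in the cells with none, as was Elf5, an ETS transcription factor of secretory ducts, at 330 and 355 CPM.

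The split by Esp4 ran the other way for Slc13a2, Crisp3 and the granular duct products. The 326 cells with at least 5 Esp4 UMIs (median 7246.5 UMIs a cell) had 125, 108 and 147 CPM of Slc13a2, against 21.5, 22.02 and 29.7 CPM in the 80 cells with none (median 5643). Their Crisp3 level was 117, 418 and 305 CPM, against 827, 2489 and 1299 CPM in the cells with none. The granular duct products summed to 2154, 2146 and 2121 CPM in the Esp4-rich cells, against 4411, 10366 and 6311 CPM in the cells with none. Klk1b11, a kallikrein, was at 85.8 CPM in the Esp4-rich cells and 910 CPM in the cells with none. Free granular duct RNA and mixed barcodes were not separated from transcription in these sums, and their part was not tested.

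**Figure D4:**
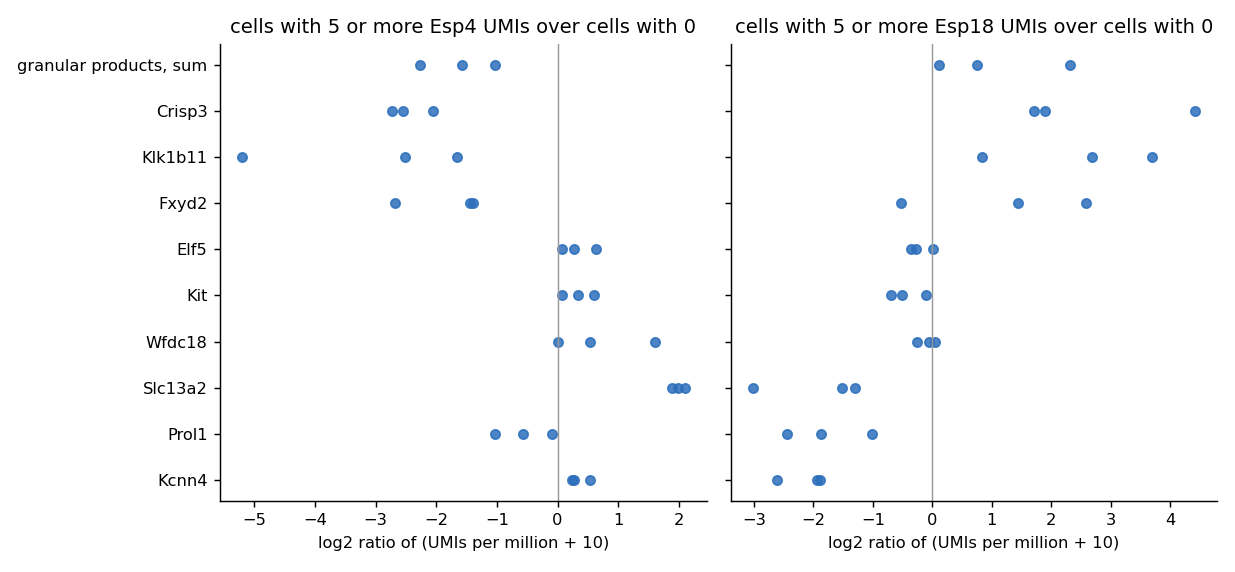
Log2 ratio of (CPM + 10) in untreated intercalated duct-like cells with at least 5 UMIs of Esp4 or Esp18 over cells of the class with none, each point 1 mouse. Slc13a2 lies above 0 for Esp4 and below 0 for Esp18, while Crisp3 lies below 0 for Esp4 and above 0 for Esp18.

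The same split in the other Esp18-bearing classes gave different pictures. In the 4 basal duct-like clusters of the basal sort with Esp18, 911 cells with at least 5 Esp18 UMIs and 709 with none were close in keratins, with Krt5 at 571 and 564 CPM and Krt14 at 3891 and 3876 CPM. In untreated striated duct-like cells Esp18 averaged 78.8 ± 42.9 CPM (34.2, 119.7 and 82.4 CPM), but only 45 of 443 cells held a UMI and 1 of them held 84. The 20 striated duct-like cells with at least 5 Esp18 UMIs had 4217 CPM of Wfdc18, a whey acidic protein family member, against 293 CPM in the 398 cells with none. Their S100a6, a calcium-binding protein, was at 916 CPM, against 49.1 CPM, and their Elf5 at 69.7 CPM, against 10.7 CPM. Klk1, the main tissue kallikrein of the ducts, was at 58938 CPM in them and at 228416 CPM in the cells with none.

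As drawn in the clustering used here, granular duct-like cells carried almost none of either transcript. In the irradiated library 0 of 98 granular duct-like cells held Esp4 and 0 of 98 held Esp18, which allows a share of up to 3.06%, at a median depth of 42645.5 UMIs a cell and a level of up to 0.841 CPM. With mice called by hashtag share, the irradiated class drawn then held 7.21 CPM of Esp18. In the untreated whole epithelium 6 of 177 held Esp4 (13 UMIs; 0.913, 6.37 and 0.704 CPM in the 3 mice) and 4 of 177 held Esp18 (11 UMIs; 0, 5.79 and 0.704 CPM). Of the irradiated granular duct-like cells only 6 came from mouse 1, and 51 and 41 came from mice 2 and 3. The untreated levels rested mostly on mouse 2: without it the pooled levels were 0.795 CPM for Esp4 and 0.398 CPM for Esp18, against 3.06 and 2.59 CPM with it. The untreated levels also depended on where the class was drawn: with mice called by hashtag share, at Leiden resolution 0.5 and with each library clustered alone, the untreated granular duct-like class held 42.8, 41.9 and 50.5 CPM of Esp18.

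Over all kept whole epithelium cells, both transcripts were lower in the irradiated library. Esp4 stood at 13.3, 11.4 and 7.54 CPM in irradiated mice 1, 2 and 3, against 132.7, 147.2 and 257.3 CPM in untreated mice. Esp18 stood at 1.78, 3.19 and 2.48 CPM in irradiated mice, against 38.4, 145.9 and 154.8 CPM in untreated mice. The groups did not overlap for either gene, but both genes were chosen with these levels known. The share of all genes without overlap was not counted. The log2 ratio of the mean levels, irradiated over untreated, was -4.06 for Esp4 and -5.51 for Esp18. Over all barcodes that passed the filter and were not called doublets, with or without a hashtag call, it was -2.45 for Esp4 and -3.80 for Esp18. That set took in 295 irradiated and 1778 untreated barcodes without a call. A sum over all cells cannot tell fewer cells of a type from less RNA per cell, and the count of cells moved as well. In the clustering used here, intercalated duct-like cells were 11 of 2005 in the irradiated library (6, 4 and 1 in the 3 mice) and 531 of 2090 in the untreated library. The irradiated count depended on the clustering and was larger under each other setting that named the class, as given further on. The summed level of the 4 intercalated duct markers was 41.9 to 68.9 CPM in irradiated mice and 119 to 154 CPM in untreated mice, with no marker at 0, and the summed level of 10 acinar markers was 419 to 2364 CPM in irradiated mice and 24213 to 30848 CPM in untreated mice, with 1 marker at 0 in 1 mouse of each group. The part of cell capture, library and mitochondrial share in the difference was not tested.

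**Figure D5:**
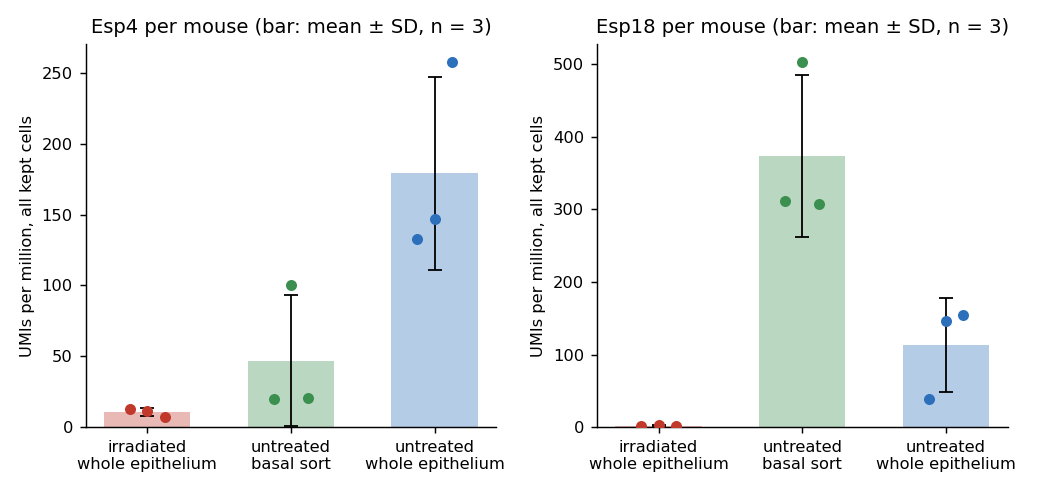
Esp4 and Esp18 levels in CPM over all kept cells of each library, each point 1 mouse, each bar the mean and each whisker the SD (n = 3). The irradiated mice lie below the untreated whole epithelium mice for both genes, and Esp18 is highest in the basal sort.

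The Esp4 that was left in the irradiated library sat in a few cells. The 11 intercalated duct-like cells held 71 Esp4 UMIs (855 CPM, exact Poisson 95% interval 668 to 1078), in 6 of the 11 cells, and 51 Esp18 UMIs (614 CPM, 457 to 807), of which 48 came from mouse 2. Of their 4 intercalated duct markers, Kit, Elf5 and Nkd2 were at 157, 229 and 84.3 CPM and Gfra3 was at 0. A further cluster of 123 irradiated cells (21, 84 and 18 in the 3 mice), cluster 13, assigned to the luminal duct-like class, held 328 Esp4 UMIs, or 69.2% of the Esp4 UMIs kept in the irradiated library. Its Esp4 level was 86.8, 134.9 and 142.3 CPM in the 3 mice, with a UMI in 44 of 123 cells. The larger luminal duct-like cluster (cluster 0) held 2 Esp4 UMIs in 957 cells of the same library. Of the 4 intercalated duct markers, Kit, a receptor tyrosine kinase, was at 33.5 CPM in the cluster of 123 cells and 147 CPM in the untreated intercalated duct-like cells. Elf5 was at 129 CPM in the cluster and 343 CPM in the untreated cells. Gfra3 and Nkd2 in this cluster are not given here. Under 7 other ways of clustering or filtering, 93 to 141 irradiated cells were named intercalated duct-like, with pooled Esp4 levels of 206 to 244 CPM and Esp18 levels of 44.5 to 63.2 CPM. The name of these cells therefore depends on the clustering, while the levels were below those of the untreated intercalated duct-like cells of the same setting, which held 922 to 1452 CPM of Esp4 and 552 to 799 CPM of Esp18.

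Within the irradiated cluster of 123 cells, the cells with Esp4 were set against those without, again with genes chosen after their values were seen and no test. The 23 cells with at least 5 Esp4 UMIs had 278 CPM of Elf5, against 70.8 CPM in the 79 cells with none, and 65.0 CPM of Slc13a2, against 9.95 CPM. Esp8 was at 97.5 CPM in the Esp4-rich cells and 12.3 CPM in the cells with none. Esp18 was at 54.9 CPM in the Esp4-rich cells and was not counted in the cells with none, and all 9 cells with Esp18 also held Esp4. The keratins Krt14, Krt17 and Krt19 were at 0, 2.03 and 4.06 CPM in the Esp4-rich cells, against 244, 795 and 348 CPM in the cells with none. S100a6 was at 63.0 CPM in the Esp4-rich cells and 6475 CPM in the cells with none. Kit was close, at 28.4 CPM in the Esp4-rich cells and 32.2 CPM in the others.

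Ionocyte-like, luminal duct-like and basal duct-like cells could also be set side by side in irradiated and untreated whole epithelium. In luminal duct-like cells Esp4 was at 7.10, 15.1 and 10.1 CPM in irradiated mice, most of it in cluster 13, against 5.12, 0 and 0 CPM in untreated mice, whose 44 cells held 1 Esp4 UMI. Esp18 in luminal duct-like cells was at 0.576, 1.25 and 2.85 CPM in irradiated mice, against 0, 0 and 17.3 CPM in untreated mice. The untreated level rested on 4 Esp18 UMIs in 1 cell. Of the irradiated luminal duct-like cells 957 lay in cluster 0, 123 in cluster 13 and 32 in cluster 18. Of the untreated ones 4, 2 and 38 lay in these clusters. In ionocyte-like cells Esp4 was at 3.86, 3.79 and 8.62 CPM in irradiated mice, against 5.02, 9.29 and 7.08 CPM in untreated mice, and these ranges overlapped. Esp18 there was at 0.965, 1.49 and 3.00 CPM in irradiated mice, against 7.53, 19.6 and 4.55 CPM in untreated mice. These ranges did not overlap, but the share of all genes without overlap in this class was not counted. The levels rested on 20 Esp18 UMIs in the irradiated cells and 85 in the untreated cells. Of the 85, 1 cell of mouse 2 held 25. Of the ionocyte-like cells, 621 of the 630 irradiated ones lay in 1 cluster and 519 of the 585 untreated ones in another. Esp18 in basal duct-like cells was at 38.8 CPM (21.2 to 65.1) in 16 irradiated cells, against 407 CPM in 50 untreated whole epithelium cells. Of the irradiated basal duct-like cells, 1 came from mouse 1, 10 from mouse 2 and 5 from mouse 3, and 4 of 16 held a UMI, against 35 of 50 untreated cells. The clusters differed too: the irradiated cells lay in clusters 2 (8 cells), 15 (5), 5 (2) and 8 (1), and the untreated cells in clusters 1 (23), 8 (12), 2 (6), 5 (5) and 15 (4). Within cluster 2, Esp18 was at 58.7 CPM in the 8 irradiated cells, against 155 CPM in the 6 untreated cells.

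Barcodes with no hashtag call held both transcripts in the same classes, in a clustering that also took in barcodes without a call. Untreated whole epithelium intercalated duct-like barcodes held 654 CPM of Esp4 among 249 without a call and 1012 CPM among 658 with one. Basal duct-like barcodes of the basal sort held 461 CPM of Esp18 among 867 without a call and 371 CPM among 2517 with one. Untreated acinar-like barcodes differed more by call: the 1021 without a call held 3.04 CPM of Esp4 and 2.10 CPM of Esp18, and the 191 with one held 29.7 CPM of Esp4 and 9.36 CPM of Esp18.

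Of the 13 other Esp genes, 3 had no UMI in any barcode (Esp1, Esp3 and Esp36) and 3 had fewer than 10 (Esp22, Esp24 and Esp38). In the untreated whole epithelium Esp8 was found mainly in acinar-like cells, with 203 of 215 kept UMIs. In the irradiated library 83 of 137 kept Esp8 UMIs lay in cluster 13, and 38 in the 9 acinar-like cells, all from mouse 2. The Esp8 level of acinar-like cells was 102.7 CPM in those 9 irradiated cells and 15.2 CPM in the 190 untreated ones, where 61 cells held a UMI. Esp31, whose upstream sequence is the closest to that of Esp18, was found in ionocyte-like cells, with 87 UMIs in 55 of 630 irradiated cells and 33 UMIs in 27 of 585 untreated cells, and with no UMI in 2530 basal duct-like cells of the basal sort. Esp34 and Esp23 also lay in ionocyte-like cells, with 22 and 19 UMIs in the irradiated library and 3 and 1 UMIs in the untreated whole epithelium. Esp16 gave 12 UMIs in 11 basal-sorted basal duct-like cells. Over all barcodes Esp15 gave 21 UMIs and Esp6 gave 27. Vmn2r116, the vomeronasal receptor for Esp1, and the related Vmn2r111 and Vmn2r112 together gave 2 UMIs in the 3 libraries, all in the basal sort.

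Only Esp8 and Esp31 of these 13 were counted often enough for the test of irradiated against untreated whole epithelium over all kept cells (edgeR quasi-likelihood test on UMIs summed per mouse, Benjamini-Hochberg adjusted over 11887 genes, threshold 0.05). In that test 4752 genes passed, which is 40.0% of those tested, 20.5% higher and 19.5% lower in irradiated mice. Esp8 was lower, at 2.37, 3.78 and 1.89 CPM in irradiated mice, against 4.60, 4.23 and 8.52 CPM in untreated mice, with no overlap (log2 fold change -1.29 ± 0.33 SE, adjusted p = 0.0140). The call was kept in 11 of 12 alternative fits. Esp31 was at 0.739, 2.45 and 1.98 CPM in irradiated mice, against 0.888, 0.832 and 1.14 CPM in untreated mice, and did not pass (0.69 ± 0.39, edgeR adjusted p = 0.195).

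The genes whose levels went most closely with each member over classes were sought over 26 sums per mouse and class of the 2 whole epithelium libraries, among 6741 genes. These sums share libraries and mice, so the Pearson correlations of log2(CPM + 1) are descriptions. For Esp4 they were Slc13a2 (0.943), Lxn (0.916), a carboxypeptidase inhibitor, Rexo2 (0.9004), a mitochondrial oligoribonuclease, Wfdc18 (0.896) and Upb1 (0.891), a pyrimidine breakdown enzyme. For Esp18 they were Dbt (0.884), a subunit of the branched-chain ketoacid dehydrogenase, Paqr6 (0.840), a membrane progestin receptor, Upb1 (0.833), Acot1 (0.813), an acyl-CoA thioesterase, and Esp4 (0.802). All 8 genes other than Esp4 were lower in irradiated mice over all kept cells (19.5% of all tested genes were). Slc13a2 had 1.04, 2.08 and 0.397 CPM in irradiated mice, against 13.2, 9.77 and 18.8 CPM in untreated mice (log2 fold change -3.57 ± 0.39 SE, edgeR adjusted p = 0.000195). Wfdc18 had 1164 ± 538 CPM in irradiated mice and 4347 ± 657 CPM in untreated mice (-2.20 ± 0.29, edgeR adjusted p = 0.000551). The other 6 had log2 fold changes between -2.06 (Acot1) and -0.93 (Rexo2). The choice of genes used the same libraries, and its intercalated duct-like sums came from untreated mice only. These falls therefore follow in part from the choice and are not independent of it.

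Most other salivary chemosignal and carrier genes could not be tested. Of 24 listed genes, 21 were in the files and 4 passed the filter on low counts. All 4 were lower in irradiated mice (19.5% of all tested genes were). Their median log2 fold change was -6.62, against -0.03 over all tested genes. The filter can keep a gene that is counted well in untreated mice alone. The shared direction of these 4 therefore says nothing about the listed genes that failed it. Scgb1b27, an androgen-binding protein subunit, had 24.0, 545.6 and 42.5 CPM in irradiated mice, against 33309, 42488 and 33433 CPM in untreated mice (-7.79 ± 1.25 SE, edgeR adjusted p = 0.00149). Its partners Scgb2b26 and Scgb2b27 changed by -9.12 ± 0.53 and -5.44 ± 0.39. Mup5, a major urinary protein that carries volatile pheromones, had 0, 21.0 and 0.0992 CPM in irradiated mice, against 72.9, 195.5 and 193.5 CPM in untreated mice (-4.42 ± 0.99, edgeR adjusted p = 0.00790, and 0.0872 with DESeq2). Irradiated mouse 2 set the size of several changes: without it Mup5 changed by -11.36 and Scgb1b27 by -10.39. The summed acinar markers, given above, were lower in the same mice, and their part in these changes was not tested.

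Of 20 acinar and intercalated duct products, 15 were tested, and 10 were lower, 1 higher and 4 not past the threshold, against 19.5% lower and 20.5% higher among all tested genes, with a median log2 fold change of -4.34. Smgc had 93.0 ± 159 CPM in irradiated mice and 8960 ± 2492 CPM in untreated mice (-6.90 ± 1.87 SE, edgeR adjusted p = 0.0181). Car6, the carbonic anhydrase secreted in saliva, changed by -6.78 ± 1.72 and Wfdc12 by -7.32 ± 0.98. Without irradiated mouse 2, Smgc changed by -13.23, Car6 by -12.28 and Wfdc12 by -10.22. In irradiated mouse 2, which held all 9 irradiated acinar-like cells, Car6 was at 232 CPM, against 1.63 and 1.79 CPM in irradiated mice 1 and 3. The gene that was higher was Csn3, a casein of milk, with 96.3, 4.004 and 23.9 CPM in irradiated mice, against 0, 0 and 0.0878 CPM in untreated mice (edgeR adjusted p = 0.00588).

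The products of the granular ducts differed in direction from the acinar and intercalated duct products. Of 19 listed genes all were tested, and 12 were higher, 0 lower and 7 not past the threshold, against 20.5% higher and 19.5% lower among all tested genes, with a median log2 fold change of 1.05. Klk1b16 had 3720, 3134 and 7307 CPM in irradiated mice, against 692, 1252 and 448 CPM in untreated mice (2.25 ± 0.43 SE, edgeR adjusted p = 0.00380). Ren1, the renin gene, had 19.0 ± 11.1 CPM in irradiated mice and 2.80 ± 1.65 CPM in untreated mice (2.40 ± 0.50, edgeR adjusted p = 0.00539). Crisp3 rose by 1.51 ± 0.30 and Klk1b8 by 1.74 ± 0.48. Klk1b8 no longer passed the threshold without untreated mouse 1 or 3, at 10% mitochondrial UMIs or less (edgeR adjusted p = 0.0881) and with mice called by hashtag share (0.0523). Ren1 did not pass with mice called by hashtag share (0.0759). Without irradiated mouse 3, Klk1b8 changed by 1.00 and Ren1 by 1.82. The summed level of 18 granular duct markers was 182722 to 237263 CPM in irradiated mice and 101527 to 117206 CPM in untreated mice. All 18 are among the 19 listed genes, so this sum counts the same genes again.

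Among 16 hormone and secretion receptors, 13 were tested, with 1 higher, 4 lower and 8 not past the threshold. Among all tested genes 20.5% were higher and 19.5% lower, and 40.0% passed. Adrb1, the beta adrenergic receptor of acinar secretion, was at 5.03, 4.41 and 3.97 CPM in irradiated mice, against 18.8, 24.0 and 27.7 CPM in untreated mice (-2.71 ± 0.17 SE, edgeR adjusted p = 1.93e-05). Prlr, the prolactin receptor, was also lower (-0.84 ± 0.14 SE). Of 20 secretory pathway genes, 5 were higher, 5 lower and 10 not past the threshold, so 10 of 20 passed, against 40.0% of all tested genes. Sec61g, a subunit of the translocon, was higher (0.86 ± 0.11), as were the protein disulfide isomerases Pdia3 (0.69 ± 0.09) and Pdia4 (0.52 ± 0.12), while Sec61a1, the channel subunit, was lower (-0.52 ± 0.08).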

How the data were processed

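Per the submitters' processing notes, the deposited matrices hold UMI counts from Cell Ranger 6.1.2 on mm10 with hashtag rows, and these counts were used as deposited. Kept barcodes had 500 or more genes and a mitochondrial share of 20% or less. Mice were called by HTODemux (Seurat 5.3.0, quantile 0.99, 5 starting clusters), and doublets were removed between mice by hashtag and within mice by Scrublet score. Barcodes without a call were set apart. Cells of the 3 libraries were clustered together without the Esp genes (scanpy 1.11.5, 2000 variable genes, 30 components, 15 neighbours, Leiden resolution 1) and named from fixed markers, so the names are rebuilt and not the authors'. Clusters, and not the Esp genes, define the classes. CPM is relative to all gene UMIs of the same cells. The test was edgeR 4.0.16 (R 4.3.3; filterByExpr, TMM, quasi-likelihood) on UMIs summed per mouse, 3 irradiated against 3 untreated mice, checked on simulated counts. DESeq2 1.42.0 was an alternative. Intervals are exact Poisson or Wilson at 95%, and a count of 0 is bounded by 3 counts.

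The members and the gene lists were chosen with earlier results of these data known. From each list the text names up to 4 genes past the threshold, without overlap between mice, at a mean of at least 10 CPM, by size of change; other Esp genes are named from 10 UMIs, and the 5 most similar genes per member by correlation. The genes of the comparisons between cells rich in a transcript and cells with none were named outside this rule, after their values were seen. Some genes that the rule would name are not reported here. Hashtag numbers do not pair the mice: deviations of same-numbered mice correlated at -0.18, -0.15 and -0.21.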

Additional observations from a re-analysis of the deposited data

How the results depend on the processing

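Alternatives were run for the levels below, the log2 ratios, the count of genes past the threshold and the named genes of the lists. None of the log2 ratios or log2 fold changes of named genes changed sign. Levels and counts cannot be negative, so for them only the size could change, and some levels moved widely, as given below. The cluster levels, co-detection, splits by UMIs and correlations had no alternative. The Esp4 log2 ratio, irradiated over untreated, was -4.86 with cells thinned. Over all barcodes that passed the filter and were not called doublets, it was -2.45, and the Esp18 ratio was -3.80. This last set is called all barcodes below. Esp4 in untreated intercalated duct-like cells was 922 CPM at 10% mitochondrial UMIs or less and 939 CPM over all barcodes. In irradiated intercalated duct-like cells, Esp4 and Esp18 were 230 and 48.6 CPM at 10% mitochondrial UMIs, 234 and 48.4 with doublets kept, 212 and 63.2 with mice called by hashtag share, 244 and 56.4 over all barcodes, 239 and 51.6 at resolution 0.5, 212 and 45.8 at resolution 2, and 206 and 44.5 with the Esp genes among the variable genes. No irradiated cluster was named so with each library clustered alone. In untreated granular duct-like cells Esp4 was 8.67 CPM with hashtag share, 5.68 thinned and 6.21 with libraries clustered alone, and Esp18 was 1.05 at 10% mitochondrial UMIs, 42.8 with hashtag share, 9.003 over all barcodes, 41.9 at resolution 0.5 and 50.5 with libraries clustered alone. Irradiated granular duct-like Esp18 was 7.21 CPM with hashtag share. The cause of these shifts was not tested. The irradiated intercalated duct-like class held more than the 11 cells described above under each setting that named one. Leaving out 1 mouse at a time gave -4.24 to -3.70 for the Esp4 ratio and -5.92 to -5.22 for the Esp18 ratio. It gave 1288 to 1648 CPM for Esp4 and 579 to 1082 CPM for Esp18 in untreated intercalated duct-like cells, 335 to 413 CPM for Esp18 in basal duct-like cells, 0.795 to 4.25 CPM for Esp4 and 0.398 to 3.54 CPM for Esp18 in untreated granular duct-like cells, 0 to 0 CPM in irradiated ones, and 800.4 to 869 CPM for Esp4 and 54.3 to 1670 CPM for Esp18 in irradiated intercalated duct-like cells, where mouse 2 carried 48 of 51 Esp18 UMIs. The count of genes past the threshold, 4752, was 3435 to 4604 without 1 mouse. With the hashtag number as a replicate block it was 3876, with DESeq2 3801 and without a filter 5086. Of 228 alternative values for 19 named genes, 222 kept their call and 6 did not (Mup5 with DESeq2, Ren1 with hashtag share, and Klk1b8 in 4 settings). Fits within granular and intercalated duct-like cells were not run as planned, since irradiated mice held as few as 6 and 1 cells. Where another setting gave every mouse 20 cells, granular duct-like fits called 908 to 3309 genes in 5 settings, and the intercalated duct-like fit at 10% mitochondrial UMIs called 1800 of 8408. The 11 and 16 irradiated cells limit the levels of intercalated and basal duct-like cells.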
